A study of Mus musculus with 29 samples.

Results

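The genes described here are 45 members of the DNA replication machinery and of the pathway that supplies its nucleotides, chosen by gene symbol in the 2 gene tables of a study of mouse CD4 T cells. All 45 were found, among 54532 rows of the cell-type table and 55421 rows of the Smad table, and all 45 passed the filter on low values in both. They were sorted by role into 6 subunits of the MCM2-7 helicase, 6 origin licensing genes, 6 helicase activation genes, 6 genes of the sliding clamp and its loader, 8 polymerase and primase subunits, 3 subunits of the single-strand binding complex RPA, 2 genes that finish Okazaki fragments, 5 genes of deoxynucleotide supply, 2 chromatin assembly genes and the transcription factor E2f1. The RNA came from C57BL/6 mice, from naive CD4 T cells of the spleen and from cultures grown from them, and libraries were made with a kit that reads tags near the 3′ end of transcripts. The cell-type experiment held 3 libraries each of naive cells, of Th0 cells after 5 days in 15 ng/ml IL-2, and of Treg cells after 5 days in 15 ng/ml IL-2 plus 10 ng/ml human TGF-beta. The Smad experiment held 2 libraries each of Treg cultures with no guide RNA (control), with a guide against Smad2 (sgSmad2), against Smad3 (sgSmad3) or against both (sgSmad2/3). Smad2 and Smad3 are the proteins that carry the TGF-beta signal to the nucleus. The labels do not give the source of Cas9 or the stimulus that activated the T cells. The submitters compared the cell types to look at lipid synthesis genes and the guides to look at the control of Acsl6, so replication was not a stated question of either experiment.

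A chromosome is copied from origins that are licensed ahead of time: the origin recognition complex, Cdc6 and Cdt1 place the ring-shaped MCM2-7 helicase on DNA, and geminin (Gmnn) later blocks Cdt1 so that no origin is used again in the same cycle. Cdc45, the GINS complex and Mcm10 then switch the helicase on, primase and the alpha, delta and epsilon polymerases build the new strands, PCNA holds them on DNA, and ribonucleotide reductase and thymidylate synthase provide the deoxynucleotides. Many of these genes are turned on by E2F factors as a cell passes from rest into S phase. Naive T cells are resting cells, and T cells stimulated in culture divide.

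Depth, inferred from the deposited values, was modest, at 797612 to 1551478 reads per library in the cell-type and 1294583 to 1602297 in the Smad experiment. So 3 reads, the limit that a count of 0 allows, stood at up to 3.76 CPM (reads per 1000000 counted reads). All 6 markers of CD4 T cells were read in every group, and their summed level was 2545 to 2620 CPM in naive, 1732 to 1797 in Th0 and 1616 to 1750 in Treg libraries. Foxp3, the factor that defines Treg cells, was at 82.7 to 91.7 CPM in naive, 8.57 to 13.8 in Th0 and 138 to 207 in Treg libraries, so the naive libraries were not free of Foxp3 RNA. The labels do not say whether libraries of a group came from separate animals or cultures, and each p therefore reflects library-to-library spread that may be technical alone.

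All 45 genes were higher in both kinds of culture than in naive cells. Their summed level was 1226 to 1330 CPM in naive, 5612 to 5847 CPM in Th0 and 5268 to 5584 CPM in Treg libraries, a mean of 4.53 times the naive sum in Th0 and 4.28 times in Treg. In Treg against naive cells all 45 passed the test upward (limma, adjusted p under 0.05), while 23.3% of the 14165 genes tested did (39.9% in either direction). The members' median log2 change was 2.18 and its range 0.67 to 5.11, beside a median of 0.08 over all genes. In Th0 against naive cells all 45 passed upward too, while 24.3% of all genes did (41.9% in either direction), with a median of 2.29 and a range of 0.55 to 4.96. These 2 comparisons share the naive libraries. The members were chosen with earlier results of these data known, so these counts are not an independent test of the pathway. The Treg libraries lay wholly above the naive libraries for 45 members (27.0% of all genes) and the Th0 libraries for 44 (26.7% of all genes); Rpa1 was the gene whose Th0 and naive libraries overlapped. A change of 4-fold or more was seen for 26 members in each comparison, against 6.17% of all genes in Treg and 5.88% in Th0. These are bulk libraries, in which fewer cells of a type and less RNA per cell cannot be told apart.

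**Figure D1:**
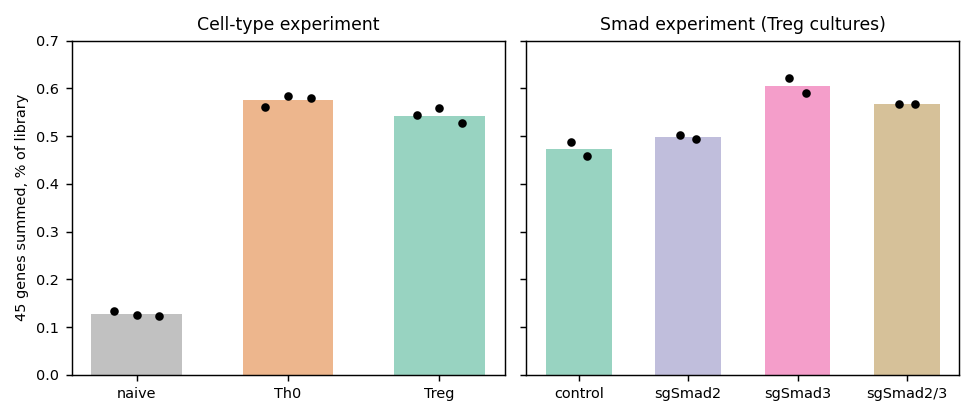
Summed level of the 45 genes as a percentage of each library (vertical axis), with bars for group means and 1 point per library, in the cell-type experiment (left) and the Smad experiment (right), whose tables were made separately. The naive libraries sit at 0.123% to 0.133%, far below all cultures.

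The naive libraries also held more RNA of red cell, B cell and myeloid markers, and its part in the result was not tested. Summed red cell markers (5 genes) were at 496 to 1172 CPM in naive, 4.90 to 5.55 in Th0 and 0 to 4.51 in Treg libraries. Summed B cell markers (10 genes) were at 378 to 840 CPM in naive, 132 to 149 in Th0 and 125 to 136 in Treg libraries. In the cultures that sum was mostly Ighm, at a mean of 254 CPM in naive, 103 in Th0 and 105 in Treg libraries. H2-Ab1 differed little, at means of 22.7, 24.6 and 17.6 CPM in the same order, whereas Igkc was at 224, 2.58 and 0 CPM. Summed myeloid markers (9 genes) were at 21.0 to 95.4 CPM in naive, 0 to 2.12 in Th0 and 1.29 to 3.23 in Treg libraries. Summed markers of CD8, NK and gamma-delta T cells (7 genes) overlapped between naive and Treg libraries. They were at 69.0 to 85.3 CPM in naive, 24.5 to 55.1 in Th0 and 45.1 to 78.6 in Treg libraries. All 5 red cell and 10 B cell markers were read in naive libraries, whereas 4 and 3 of the 5 red cell markers were at 0 in all Th0 and all Treg libraries. The highest share of a naive library was 0.117% for the red cell and 0.0840% for the B cell markers.

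**Figure D2:**
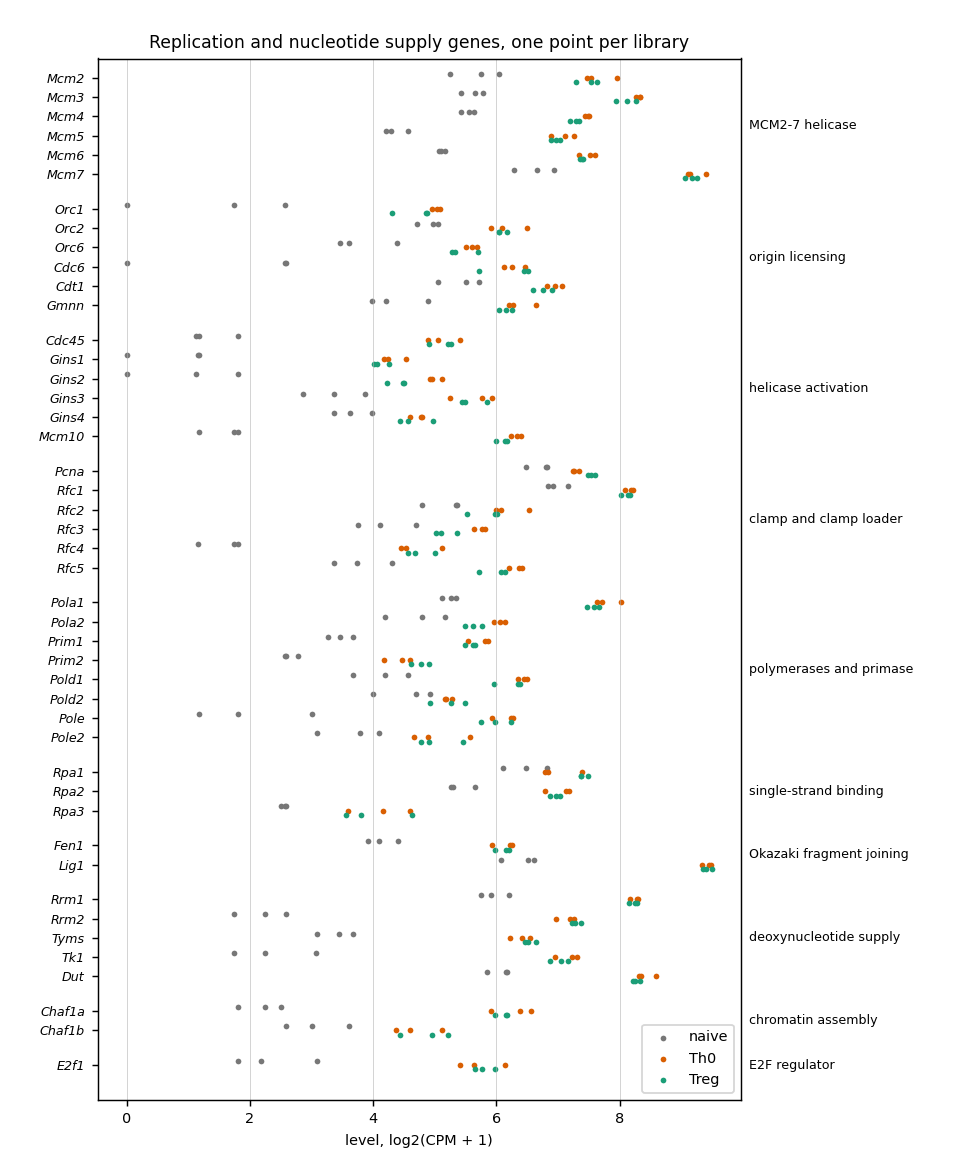
Level of each of the 45 genes in every library of the cell-type experiment on a log2(CPM + 1) axis, grouped by role, with 1 point per library. Naive points lie to the left of Treg points in all 45 rows, and Th0 and Treg points mostly overlap.

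All 6 helicase subunits rose, with smaller fitted changes for Mcm2 and Mcm4 than for the others. Differences between the subunits were not tested. Mcm2 stood at 65.2, 37.2 and 52.6 CPM in naive, 177, 184 and 247 CPM in Th0 and 184, 199 and 157 CPM in Treg libraries. Mcm3 stood at 53.9, 49.6 and 42.1 CPM in naive, 322, 321 and 307 CPM in Th0 and 278, 306 and 246 CPM in Treg libraries. Mcm4 stood at 48.9, 45.8 and 42.1 CPM in naive, 181, 172 and 179 CPM in Th0 and 145, 156 and 161 CPM in Treg libraries. For each of these 3 subunits every cultured library lay above every naive library. Mcm5 read 22.6, 18.6 and 17.5 CPM in naive, 153, 138 and 118 CPM in Th0 and 124, 129.6 and 118 CPM in Treg libraries. Mcm6 read 35.1, 33.5 and 32.7 CPM in naive, 182, 193 and 162 CPM in Th0 and 167, 163 and 169 CPM in Treg libraries. Mcm7 read 122, 76.8 and 101 CPM in naive, 553, 679 and 563 CPM in Th0 and 576, 614 and 536 CPM in Treg libraries. Again no cultured library reached down to the naive range, and the naive range of Mcm6 was the tightest of the 6. In Treg against naive cells the log2 change was 1.81 for Mcm2, 2.49 for Mcm3, 1.73 for Mcm4, 2.27 for Mcm6 and 2.54 for Mcm7, and it was largest for Mcm5, at 2.61 (SE 0.15, limma adjusted p = 5.79e-11). The highest limma adjusted p of the 6 was 8.07e-08, for Mcm2. In Th0 against naive cells the 6 changes ran from 1.94 to 2.73, and their median was 2.48, beside 2.38 in Treg.

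The starts of Mcm3, Mcm5, Mcm6 and Mcm7 are shown because they carry letters to which E2F factors are known to bind. The window of Mcm2 held no match to these letters, and no promoter window was at hand for Mcm4, so it was not searched. The promoter sequences are from RefSeq (GRCm38.p6, the assembly also called mm10), written 5′ to 3′ on the gene's strand, and capitals mark matches to 4 E2F-type motifs (TTTCCCGC, TTTCGCGC, TTTGCCGC and TTTGGCGC, either strand) and to CCAAT or its reverse complement. The Mcm6 stretch is chr1:128359706-128359835, minus strand, and ends 1 base before the annotated start. The Mcm5 stretch is chr8:75109328-75109457, plus strand, 181 to 52 bases before an annotated start. That start lies inside the RefSeq gene span, which begins at 75109468, and the stretch lies outside the span. The Mcm7 stretch is chr5:138172028-138172057, minus strand, 174 to 145 bases before an annotated inner start. This stretch lies inside the RefSeq gene span, which reaches to 138172111, so it is not upstream of the outermost start. The Mcm3 stretch is chr1:20820265-20820294, minus strand, 19 to 48 bases after the annotated start.
Mcm6: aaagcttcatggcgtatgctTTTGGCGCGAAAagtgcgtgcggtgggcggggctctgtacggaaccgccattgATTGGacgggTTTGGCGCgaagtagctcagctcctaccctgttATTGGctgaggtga
Mcm5: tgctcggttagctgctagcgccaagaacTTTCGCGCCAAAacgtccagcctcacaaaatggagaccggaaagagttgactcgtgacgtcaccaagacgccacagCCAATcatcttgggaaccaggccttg
Mcm7: tttcgaaccGCGGGAAAcagggtgtccaac
Mcm3: gGCGGGAAAacttgggaagtTTTGGCGCca
In Mcm6 the first run of capitals joins 2 overlapping matches on opposite strands, and another match lies nearer the start, between 2 CCAAT-type matches. In Mcm5 the run joins 2 overlapping matches in the same way. Windows of 250 bases before to 50 bases after the start were at hand for 37 of the 45 members, and 13 of the 37 (35.1%) held at least 1 of the 8-letter motifs, beside 2.61% of 27025 genes with such windows. The 13 were Cdc6, Cdt1, Gins3, Lig1, Mcm3, Mcm5, Mcm6, Mcm7, Orc1, Pola1, Pold1, Pole2 and Rfc3. With 7-letter motifs that lack the first T, 23 of 37 held a match, beside 10.9% of all genes, and in the 250 bases before the start alone 8 of 37 held the longer motif, beside 2.16%. CCAAT, the letters of the NF-Y motif, was in 23 of 37 windows (62.2%), beside 41.1% of genes. TTTGAA, a cell cycle homology element, was in 5 of 37 (13.5%), beside 20.2% of genes. The 13 members with the 8-letter motif had a median log2 change of 2.33 in Treg against naive cells, and the 24 members whose windows lacked it had 2.05, with ranges of 0.98 to 4.51 and 0.69 to 5.11 that overlapped almost throughout. The shares of genes are over all genes with a window, which were not matched to the members in base composition, biotype or level. Such matches describe letters, not bound sites.

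Among the origin licensing genes Cdc6 and Orc1 were near the limit of detection in naive cells and clearly read in culture, while the other 4 were already expressed and rose less. Cdc6, the ATPase that loads the helicase with ORC, was at 5.01, 4.96 and 0 CPM in naive, 75.2, 87.7 and 68.6 CPM in Th0 and 51.7, 86.4 and 90.1 CPM in Treg libraries. This was 8 reads over the 3 naive libraries and 274 over the Treg libraries, a ratio of 24.1 (exact 95% counting interval 12 to 56.3) per read sequenced. Its log2 change was 4.51 (SE 0.47, limma adjusted p = 2.39e-07), the largest of the licensing genes on this scale. Orc1, the ATPase subunit of the origin recognition complex, had 6 reads in naive and 84 in Treg libraries, a ratio of 9.84 (exact 95% counting interval 4.34 to 27.6). Cdt1, the partner of Cdc6 in loading, was at 51.4, 32.2 and 44.4 CPM in naive, 112, 123 and 132 CPM in Th0 and 95.8, 119 and 108 CPM in Treg libraries. Gmnn, its inhibitor, was at 28.8, 14.9 and 17.5 CPM in naive, 99.6, 73.2 and 75.9 CPM in Th0 and 70.0, 65.1 and 75.4 CPM in Treg libraries. The loader and its inhibitor therefore both rose, with log2 changes of 1.33 (SE 0.16, limma adjusted p = 1.86e-06) and 1.78 (SE 0.21, limma adjusted p = 1.4e-06) in Treg against naive cells. Orc2 and Orc6, further subunits of the origin recognition complex, changed by 1.17 and 1.62.

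Among the roles with more than 1 gene helicase activation had the largest median change, 3.37 in Treg and 3.65 in Th0 cells. Mcm10, which helps the loaded helicase to start unwinding, was at 1.25, 2.48 and 2.34 CPM in naive, 74.2, 83.2 and 79.6 CPM in Th0 and 62.5, 70.9 and 69.5 CPM in Treg libraries. That is 5 reads in naive and 239 in Treg libraries, a ratio of 33.6 (exact 95% counting interval 14.2 to 104), and a log2 change of 4.53 (SE 0.24, limma adjusted p = 1.56e-11). Cdc45, which joins MCM2-7 and GINS in the active helicase, had 4 reads in naive, 90 in Th0 and 121 in Treg libraries. The GINS subunits were not alike in their naive levels. Gins1 had 2 reads in naive and 58 in Treg libraries, a ratio of 20.4 (exact 95% counting interval 5.39 to 172), and Gins2 had 3 and 71, a ratio of 16.6 (exact 95% counting interval 5.46 to 82.6). Gins3 changed by 2.23. Gins4 was already at 9.35 to 14.9 CPM in naive cells and changed by 0.99 (SE 0.27, limma adjusted p = 0.00651), the smallest change of this role.

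The clamp and its loader rose least, with a median of 1.06 in Treg and 1.37 in Th0 cells. Pcna, the sliding clamp, was at 110.3, 113 and 88.8 CPM in naive, 152, 161 and 153 CPM in Th0 and 178, 184 and 193 CPM in Treg libraries. It rose by 1.78-fold in Treg cells, a log2 change of 0.83 (SE 0.12, limma adjusted p = 9.48e-06), so a widely used proliferation marker was among the least changed members. Among the loader subunits Rfc4 stood apart, at 2.51, 1.24 and 2.34 CPM in naive, 33.9, 22.2 and 20.8 CPM in Th0 and 31.2, 22.6 and 24.5 CPM in Treg libraries, with 5 reads in naive and 89 in Treg libraries and a ratio of 12.5 (exact 95% counting interval 5.16 to 39.5). Its log2 change was 3.18 (SE 0.35, limma adjusted p = 4.83e-07). Rfc1, the large subunit, changed by 1.14, Rfc3 by 0.98 and Rfc5 by 2.18. Rfc2 changed by 0.67 (SE 0.20, limma adjusted p = 0.0131), the smallest change of all 45 genes in Treg against naive cells.

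All 8 polymerase and primase subunits rose, by fitted changes that were larger for each of the 3 catalytic polymerase subunits than for its accessory subunit. Pole, the catalytic subunit of the leading-strand polymerase epsilon, was at 1.25, 2.48 and 7.01 CPM in naive, 74.2, 76.6 and 60.0 CPM in Th0 and 74.3, 61.9 and 52.9 CPM in Treg libraries. It had 9 reads in naive and 219 in Treg libraries, a ratio of 17.1 (exact 95% counting interval 8.84 to 37.9), and a log2 change of 4.0 (SE 0.34, limma adjusted p = 1.4e-08). Pola1, the catalytic subunit of polymerase alpha, changed by 2.33 and Pold1, that of the delta polymerase, by 2.09. The accessory subunits Pole2, Pola2 and Pold2 changed by 1.39, 0.91 and 0.69. Differences between genes were not tested. Prim1 and Prim2, the primase subunits, changed by 2.13 and 2.12. Pold2 was the weakest of the calls, with a limma adjusted p of 0.0305 in Treg and 0.0325 in Th0 cells.

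RPA coats the single strands that the helicase opens, and its 3 subunits rose by modest amounts. Rpa2, with the largest of these changes, was at 37.6, 38.4 and 49.1 CPM in naive, 144, 109.9 and 138 CPM in Th0 and 124, 129.6 and 116 CPM in Treg libraries, a log2 change of 1.55 (SE 0.15, limma adjusted p = 6.74e-08) in Treg cells. Rpa1 changed by 0.95 in Treg and 0.55 in Th0 cells, and Rpa3 by 1.44 and 1.57. The 2 genes that finish Okazaki fragments rose strongly. Lig1, the ligase that seals them, was at 66.4, 96.6 and 90.0 CPM in naive, 644, 719 and 698 CPM in Th0 and 673, 722 and 653 CPM in Treg libraries. Its log2 change of 3.02 (SE 0.12, limma adjusted p = 1.4e-13) was tied to a naive range of 66.4 to 96.6 CPM, so its naive level was far above the limit of detection. Fen1, the nuclease that trims the flap, changed by 1.97.

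Deoxynucleotide supply held the gene with the largest fitted change of the 45 at this pseudocount; with a pseudocount of 0.1 Cdc6 had 5.75 and Rrm2 had 5.43, and the counting intervals of Rrm2, Mcm10 and Cdc6 overlap. Rrm2, the regulated subunit of ribonucleotide reductase, was at 5.01, 3.72 and 2.34 CPM in naive, 153, 146 and 125 CPM in Th0 and 165, 155 and 149 CPM in Treg libraries. It had 9 reads in naive and 545 in Treg libraries, a ratio of 42.6 (exact 95% counting interval 22.3 to 93.6), and a log2 change of 5.11 (SE 0.20, limma adjusted p = 2.21e-13). Rrm1, the catalytic subunit of the same enzyme, was at 52.7, 59.5 and 72.5 CPM in naive, 287, 313 and 312 CPM in Th0 and 311, 304 and 284 CPM in Treg libraries. The 2 subunits thus differed in their naive starting point, and Rrm1 changed by 2.28 (SE 0.12, limma adjusted p = 9.71e-12). Tyms, which makes thymidylate from deoxyuridylate, was at 7.52, 9.91 and 11.7 CPM in naive, 84.8, 92.1 and 73.5 CPM in Th0 and 99.1, 90.2 and 87.2 CPM in Treg libraries. Tk1, the salvage kinase for thymidine, was at 3.76, 7.43 and 2.34 CPM in naive, 148, 123 and 157 CPM in Th0 and 131, 142 and 116 CPM in Treg libraries. Both thymidine routes rose, by 3.14 for Tyms and 4.67 for Tk1, and Tk1 had 11 reads over the naive libraries against 461 over the Treg libraries. Dut, which removes dUTP, changed by 2.21.

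Chaf1a and Chaf1b, subunits of the CAF-1 complex that places histones on new DNA, rose by 3.91 and 1.80 in Treg cells. Chaf1a, the larger change, was at 3.76, 2.48 and 4.68 CPM in naive, 59.3, 82.1 and 93.1 CPM in Th0 and 70.0, 70.9 and 61.7 CPM in Treg libraries. It had 9 reads in naive and 238 in Treg libraries, a ratio of 18.6 (exact 95% counting interval 9.63 to 41.1). E2f1, one of the factors that switch on replication genes, was at 7.52, 2.48 and 3.51 CPM in naive, 41.3, 48.8 and 69.8 CPM in Th0 and 49.5, 53.5 and 61.7 CPM in Treg libraries. Its log2 change was 3.45 (SE 0.31, limma adjusted p = 2.5e-08) in Treg and 3.38 (SE 0.31, limma adjusted p = 2.99e-08) in Th0 cells, and no cultured library overlapped a naive one. In all, 10 members had a naive mean below the level of 3 reads (Orc1, Cdc6, Cdc45, Gins1, Gins2, Mcm10, Rfc4, Pole, Rrm2 and Chaf1a), and for these the fitted changes understate the ratio of reads. Of the 45 members, 13 overlap a neighbouring protein-coding gene in RefSeq. They are E2f1 (Necab3), Mcm7 (Ap4m1), Lig1 (Zswim9), Tk1 (Afmid), Rfc4 (Eif4a2), Pold2 (Aebp1), Gins2 (Gse1), Rpa1 (Smyd4), Orc1 (Prpf38a), Cdc45 (Ufd1), Chaf1a (Ubxn6), Fen1 (Tmem258) and Pole2 (Klhdc1). As the strand setting is not given, reads of the partners may be mixed. Some of these 13 are also among the 10.

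The calls against naive cells depended little on the settings. Pold2 lost its call in 9 of 20 alternatives in Treg and 10 of 20 in Th0 cells, Rfc2 in 6 and Gins4 in 1 in Treg cells, and Rpa1 in 6 in Th0 cells, with limma, edgeR or DESeq2 adjusted p of up to 0.169 in Treg and 0.209 in Th0. Pold2 lost it without naive replicate 1, without Treg replicate 1 or 2 and without any 1 of the 3 Th0 libraries, Rfc2 without naive replicate 3 or Treg replicate 1 or 2, and Rpa1 without naive replicate 3 or Th0 replicate 1. The other 42 and 43 calls held in all 20.

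Treg and Th0 cultures, which differ by TGF-beta, differed little in these genes, with slightly lower sums in Treg. The summed level of the 45 was 5441, 5584 and 5268 CPM in Treg and 5612, 5847 and 5791 CPM in Th0 libraries, so the 2 groups did not overlap. The sums of the 6 helicase subunits almost met, at 1386 to 1566 CPM in Treg and 1568 to 1687 CPM in Th0 libraries. Gene by gene, none of the 45 passed the test in Treg against Th0 cells by limma (lowest adjusted p = 0.216) or DESeq2, while 5.44% of all genes passed by limma, 2.99% upward and 2.45% downward. At an unadjusted p under 0.05 there were 2 higher and 1 lower, beside 7.91% and 7.79% of all genes. Only edgeR on the recovered reads called a member, Rpa1, at a log2 change of 0.39 (edgeR adjusted p = 0.0420). The direction leaned one way: 34 members had a lower and 11 a higher fitted value in Treg cells, with a median log2 change of -0.13 and a range of -0.60 to 0.40, beside a median of -0.01 over all genes. The members are not independent of one another, so the 34 and 11 are not separate observations. The number of lower values was 31 under quantile scaling and 31 to 37 over all alternatives. The Treg libraries lay wholly below the Th0 libraries for 8 members (11.2% of all genes) and wholly above for 2 (10.0% of all genes). All 6 helicase subunits and all 6 licensing genes were among the 34.

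**Figure D3:**
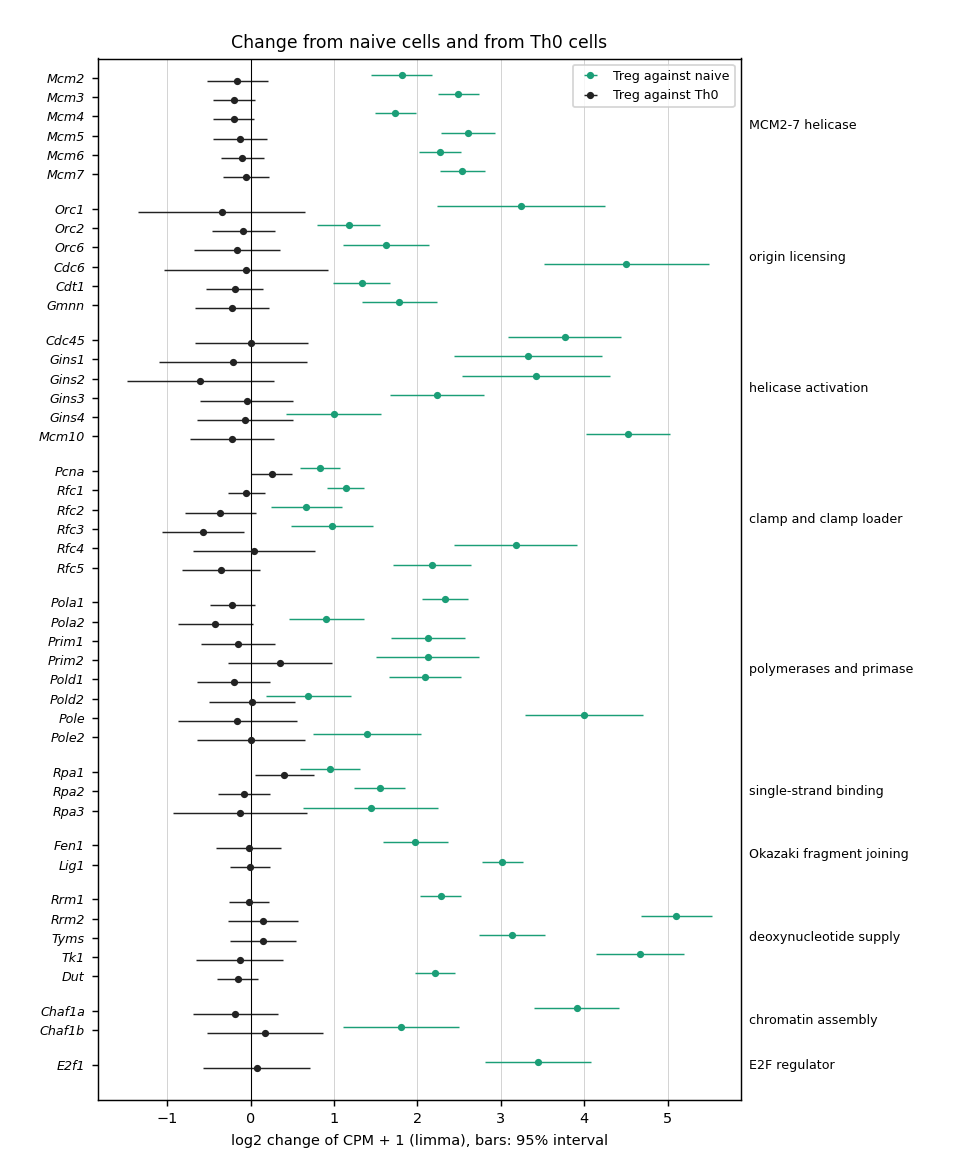
Log2 change of CPM + 1 for each of the 45 genes in Treg against naive cells (green) and in Treg against Th0 cells (black), with 95% intervals from limma, grouped by role. All 45 green intervals lie above 0, and 42 of the 45 black intervals include 0.

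Pcna went against the lean, with all 3 Treg libraries (178 to 193 CPM) above all 3 Th0 libraries (152 to 161 CPM) and a log2 difference of 0.25 (95% interval 0.01 to 0.49, limma adjusted p = 0.293). Rfc3 had the lowest p of the downward members, at 48.7, 53.3 and 55.1 CPM in Th0 and 33.4, 31.6 and 40.2 CPM in Treg libraries, a difference of -0.57 (-1.06 to -0.08, limma adjusted p = 0.216). Rpa1 differed by 0.40 (0.05 to 0.76, limma adjusted p = 0.233), with 1 of the Th0 libraries inside the Treg range. These 3 were singled out after their values were seen, as the members whose interval left out 0. The intervals bound the difference for most genes: 40 of 45 lay within a 2-fold change in either direction and 19 within 1.5-fold. They were widest where reads were few, and the outermost bounds were -1.49 (Gins2) and 0.97 (Prim2). For the other 26 members the interval reached past 1.5-fold.

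Genes of the same pathways outside the 45 showed both rises and falls against naive cells, and their counts are to be read beside the 23.3% of all genes that were higher and the 16.5% that were lower in Treg. Of 20 other licensing, firing and fork genes 14 were higher and 0 lower in Treg than in naive cells by limma. Clspn, a checkpoint mediator at the fork, was at 6.94 ± 2.71 CPM in naive and 182 ± 23.2 CPM in Treg libraries (SD, n = 3), and Uhrf1, which reads hemimethylated DNA, at 3.68 ± 1.31 CPM in naive and 91.4 ± 6.77 CPM in Treg libraries. Of 20 other polymerase, clamp and maturation genes 15 were higher and 0 lower, led by Top2a, a topoisomerase, at 78.5 ± 19.7 CPM in naive and 3445 ± 136 CPM in Treg libraries, and Pclaf, a PCNA-binding factor, at 12.6 ± 1.84 CPM in naive and 514 ± 15.9 CPM in Treg libraries. Neither list had a call between Treg and Th0 cells by limma. Among 12 other deoxynucleotide genes tested 7 were higher and 2 lower, the latter near the share of all genes. Shmt1, which feeds thymidylate synthesis, was at 4.46 ± 0.625 CPM in naive and 30.9 ± 2.24 CPM in Treg libraries, and Dctd, which deaminates dCMP, had 2 reads in naive and 32 in Treg libraries, a ratio of 11.2 (exact 95% counting interval 2.87 to 96.8). The 2 that fell were Tk2, the mitochondrial thymidine kinase, by 1.58 on the log2 scale (limma adjusted p = 0.000216), and Samhd1, which breaks down deoxynucleotides, by 0.39 (limma adjusted p = 0.000908). Cmpk2, a mitochondrial nucleotide kinase, and Rrm2b, the other small subunit of ribonucleotide reductase, had larger negative fitted values, -1.29 and -0.79, that did not pass (limma adjusted p = 0.0706 and 0.0645).

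Of 19 genes of new purine and pyrimidine synthesis 10 were higher and 1 lower in Treg than in naive cells. Pfas, a purine enzyme, was at 11.4 ± 2.09 CPM in naive and 40.9 ± 4.75 CPM in Treg libraries (SD, n = 3), and Adssl1, the muscle-type adenylosuccinate synthase, rested on 1 read in naive and 18 in Treg libraries, a ratio of 12.6 (exact 95% counting interval 2.00 to 527). Ctps2, a CTP synthase, fell by 1.84 on the log2 scale (limma adjusted p = 0.00792). Of 28 E2F, Rb and G1/S genes tested 22 were higher and 2 lower. E2f8, a repressor of the E2F family, had 1 read in naive and 281 in Treg libraries, a ratio of 197 (exact 95% counting interval 35.2 to 7827), and Ccna2, the S-phase cyclin A, had 5 and 578, a ratio of 81.2 (exact 95% counting interval 34.6 to 251). The 2 lower genes were the inhibitors Cdkn1b, by 0.48 on the log2 scale (limma adjusted p = 0.00141), and Cdkn1c, with 14 reads in naive and 1 in Treg libraries, a ratio of 0.0502 (exact 95% counting interval 0.00119 to 0.330). E2f5 had a fitted value of -1.20 that did not pass (limma adjusted p = 0.0533). Other inhibitors of cyclin-dependent kinases rose and are named after their values were seen: Cdkn1a from 53 reads in naive to 1867 in Treg libraries, a ratio of 24.8 (exact 95% counting interval 18.8 to 33.2). Cdkn2c went from 11 to 154 reads, a ratio of 9.84 (exact 95% counting interval 5.35 to 20.1). Cdkn2d went from 273 to 660 reads, a ratio of 1.70 (exact 95% counting interval 1.47 to 1.96), and Cdkn2a from 0 to 22 reads. Across the 3 lists of nucleotide and E2F genes 3 of 59 genes tested (5.08%) passed between Treg and Th0 cells, a share close to the 5.44% of all genes that passed in either direction. These 3 were lower in Treg, as were 2.45% of all genes, and are named after their values were seen. They were Cmpk2 (-3.13, limma adjusted p = 0.00108), the purine enzyme Atic (-0.44, limma adjusted p = 0.0215) and the G1 kinase Cdk6 (-0.80, limma adjusted p = 0.000254).

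In the Smad experiment the guides' own targets gave a partial check of the labels. Smad2 was at 37 and 29 in control, 12 and 24 in sgSmad2, 25 and 30 in sgSmad3 and 13 and 18 in sgSmad2/3 libraries (CPM rounded to whole numbers in the deposited table). Smad3 was at 30 and 34 in control, 44 and 56 in sgSmad2, 26 and 25 in sgSmad3 and 41 and 37 in sgSmad2/3 libraries, so its RNA was not lower where both guides were used. Neither Smad2 nor Smad3 passed the test in any guide comparison by limma. A guide cuts DNA, and tags near the 3′ end need not report a cut elsewhere in the gene, so these levels check little.

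None of the 45 replication genes passed the test with any guide. By limma the count was 0 for sgSmad2 (0.00931% of the 10737 genes tested), 0 for sgSmad3 (0.0931%, with 0.0559% upward and 0.0373% downward) and 0 for sgSmad2/3 (0.522%, with 0.233% upward and 0.289% downward), and the lowest adjusted p values were 1, 0.193 and 0.119. The 3 comparisons share the control libraries. These controls carried no guide RNA, so an effect of a lost Smad and one of carrying any guide cannot be told apart here. Most fitted values were nevertheless above 0: for 30 members with sgSmad2 (median log2 change 0.11), 38 with sgSmad3 (0.31) and 40 with sgSmad2/3 (0.26). Over all genes the medians were 0.01, 0.03 and 0.04, and 52.2%, 54.0% and 54.0% of fitted values were above 0. Here too the members are not independent of one another, so the counts of members are not counts of separate observations. At an unadjusted p under 0.05 there were 0 members with sgSmad2 (1.87% of all genes upward and 1.36% downward), 14 higher and 0 lower with sgSmad3 (6.70% of all genes upward and 4.61% downward) and 11 higher and 0 lower with sgSmad2/3 (5.77% upward and 4.82% downward). The libraries lay wholly above the controls for 14 members with sgSmad2 (13.4% of all genes), 28 with sgSmad3 (21.4%) and 27 with sgSmad2/3 (23.4%), and wholly below for 1 (11.0%), 2 (16.7%) and 1 (17.7%). The summed level was 4873 and 4582 in control, 5024 and 4936 in sgSmad2, 6213 and 5910 in sgSmad3 and 5682 and 5674 in sgSmad2/3 libraries, and no guide library overlapped the controls.

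**Figure D4:**
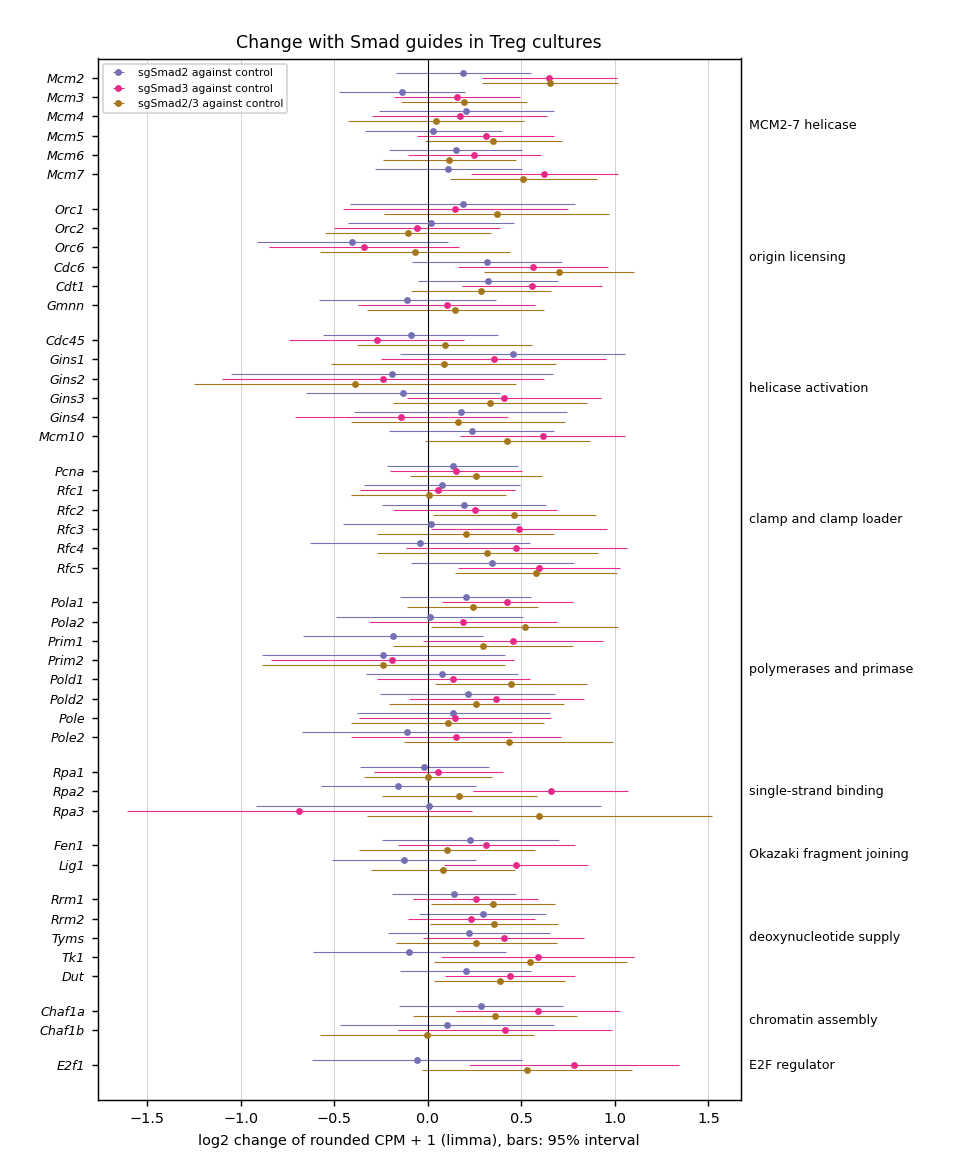
Log2 change of rounded CPM + 1 for each of the 45 genes with each guide against the control, with 95% intervals from limma, grouped by role. Most points for sgSmad3 and sgSmad2/3 lie to the right of 0, and no gene passes the adjusted threshold.

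Among the helicase subunits Mcm2 and Mcm7 had the clearest separation. Mcm2 was at 117 and 134 in control, 127 and 161 in sgSmad2, 196 and 198 in sgSmad3 and 196 and 199 in sgSmad2/3 libraries. Its log2 change was 0.65 with sgSmad3 (95% interval 0.29 to 1.01, limma adjusted p = 0.193) and 0.65 with sgSmad2/3 (0.29 to 1.02, limma adjusted p = 0.119). Mcm7 was at 415 and 487 in control, 396 and 594 in sgSmad2, 694 and 691 in sgSmad3 and 698 and 589 in sgSmad2/3 libraries, where the second sgSmad2 library reached the range of the other guides. The other subunits were less separated. Mcm3 was at 313 and 276 in control, 286 and 249 in sgSmad2, 353 and 304 in sgSmad3 and 329 and 344 in sgSmad2/3 libraries. Mcm4 was at 195 and 112 in control, 193 and 151 in sgSmad2, 162 and 171 in sgSmad3 and 164 and 142 in sgSmad2/3 libraries, with control libraries that span all the others. Mcm5 was at 103 and 102 in control, 114 and 96 in sgSmad2, 121 and 134 in sgSmad3 and 134 and 128 in sgSmad2/3 libraries, with sgSmad3 and sgSmad2/3 libraries above both controls. Mcm6 was at 140 and 133 in control, 147 and 156 in sgSmad2, 147 and 179 in sgSmad3 and 152 and 144 in sgSmad2/3 libraries, above both controls in all 6 guide libraries by small margins.

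Licensing genes differed among themselves. Cdc6 was at 50 and 50 in control, 61 and 64 in sgSmad2, 69 and 80 in sgSmad3 and 82 and 82 in sgSmad2/3 libraries, so all guide libraries exceeded the controls, and its log2 change with sgSmad2/3 was 0.70 (0.30 to 1.10, limma adjusted p = 0.132). Cdt1 was at 100 and 84 in control, 123 and 107 in sgSmad2, 140 and 131 in sgSmad3 and 107 and 117 in sgSmad2/3 libraries, again above both controls in each guide library. Gmnn was at 90 and 57 in control, 71 and 62 in sgSmad2, 74 and 80 in sgSmad3 and 89 and 71 in sgSmad2/3 libraries, with the controls at both ends of the spread. Mcm10, of the helicase activation genes, was at 51 and 38 in control, 53 and 51 in sgSmad2, 71 and 65 in sgSmad3 and 59 and 60 in sgSmad2/3 libraries, and only the sgSmad2 libraries overlapped the controls. Pcna was at 151 and 145 in control, 170 and 155 in sgSmad2, 149 and 181 in sgSmad3 and 177 and 177 in sgSmad2/3 libraries, a spread of at most 1.19-fold between group means on the fitted scale. Rfc4 was at 17 and 20 in control, 20 and 16 in sgSmad2, 26 and 26 in sgSmad3 and 20 and 27 in sgSmad2/3 libraries, with the sgSmad3 pair wholly above the controls. Pole was at 46 and 43 in control, 50 and 48 in sgSmad2, 45 and 54 in sgSmad3 and 37 and 62 in sgSmad2/3 libraries, where the 2 sgSmad2/3 libraries spanned all the others.

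Rpa2 and Lig1 were high in sgSmad3 libraries, replicate 1 in particular. Rpa2 was at 130 and 145 in control, 140 and 108 in sgSmad2, 260 and 181 in sgSmad3 and 154 and 155 in sgSmad2/3 libraries, and Lig1 at 687 and 620 in control, 687 and 520 in sgSmad2, 1062 and 773 in sgSmad3 and 659 and 725 in sgSmad2/3 libraries. Their log2 changes with sgSmad3 were 0.66 (limma adjusted p = 0.253) and 0.47 (limma adjusted p = 0.38), and with sgSmad2/3 0.17 and 0.08. Among the deoxynucleotide genes Rrm1 was at 254 and 257 in control, 272 and 291 in sgSmad2, 278 and 335 in sgSmad3 and 336 and 316 in sgSmad2/3 libraries, and Rrm2 at 147 and 151 in control, 189 and 177 in sgSmad2, 183 and 168 in sgSmad3 and 180 and 202 in sgSmad2/3 libraries. Both lay above the controls in all guide libraries. Tyms was at 68 and 78 in control, 86 and 84 in sgSmad2, 80 and 117 in sgSmad3 and 83 and 92 in sgSmad2/3 libraries, and Tk1 at 69 and 105 in control, 60 and 105 in sgSmad2, 135 and 122 in sgSmad3 and 122 and 128 in sgSmad2/3 libraries, where the 2 libraries of control and of sgSmad2 lay far apart. Chaf1a was at 66 and 46 in control, 64 and 71 in sgSmad2, 81 and 86 in sgSmad3 and 68 and 74 in sgSmad2/3 libraries. E2f1 was at 31 and 40 in control, 26 and 44 in sgSmad2, 72 and 52 in sgSmad3 and 48 and 55 in sgSmad2/3 libraries, and its change with sgSmad3, 0.78 (0.22 to 1.34, limma adjusted p = 0.304), was the largest positive value of the 45 in that comparison. With sgSmad3 38 members had fitted values above 0 and 7 below. The 7 were Cdc45, Gins2, Gins4, Orc2, Orc6, Prim2 and Rpa3. Rpa3, at 20 and 20 in control and 9 and 16 in sgSmad3 libraries, had the lowest value, -0.69. Cdc45 was at 42 and 36 in control and 32 and 32 in sgSmad3 libraries.

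The 95% intervals lay within a 2-fold change for 43 members with sgSmad2, 34 with sgSmad3 and 37 with sgSmad2/3. With 2 libraries a group, the counts at an unadjusted p under 0.05 turned on single libraries: 14 for sgSmad3 became 8 without control replicate 2 or without sgSmad3 replicate 1, and 11 for sgSmad2/3 became 5 without control replicate 1, 7 without control replicate 2, and 2 and 6 without the first and the second sgSmad2/3 library. Without a trend they were 9 and 4, and for sgSmad2/3 they were 7 under quantile and 6 under TMM scaling. For sgSmad2 the count of 0 became 2 without control replicate 1. The sum of the 2 single-guide changes and the change with sgSmad2/3 differed for 0 members by limma (0% of all genes), and at an unadjusted p under 0.05 for 0 upward and 1 downward (1.43% and 1.47% of all genes). The median of this departure was -0.12 over the members and -0.03 over all genes. Its median SE was 0.30, beside 0.21 for each guide, and 32 of the 45 intervals lay within 2-fold. The absence of calls therefore does not show that the changes add up. Red cell and myeloid markers moved with the groups here too, and their part in the result was not tested. Summed red cell markers (5 genes, Alas2 at 0) were at 13 to 19 in control, 24 to 25 in sgSmad2, 32 to 87 in sgSmad3 and 70 to 144 in sgSmad2/3 libraries. Summed myeloid markers (9 genes, Cd14 and Itgam at 0) were at 0 to 3, 3 to 8, 8 to 55 and 21 to 71 in the same order. B cell markers (10 genes, Ms4a1 at 0) were at 105 to 115, 87 to 97, 95 to 125 and 92 to 127. Markers of CD8, NK and gamma-delta T cells (7 genes, Ncr1 at 0) were at 35, 29 to 39, 32 to 41 and 28 to 34. The 5 lists of other pathway genes also had 0 calls with each guide by limma.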

How the data were processed

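RNA libraries of 17 of 29 samples were used; 4 RNA libraries of an Acsbg1 experiment and 8 ATAC libraries were not analysed here. Per the submitters' processing notes, STAR 2.7.9a, Subread 2.0.1, Bowtie2, deepTools and mm10 were used, in no stated role; strand setting and annotation are not stated. The authors deposited CPM in the cell-type table under the name TPM: 100% of values were whole multiples of 1 read (tolerance 0.01). The authors deposited a score in the Smad table, CPM rounded to whole numbers. Its unnamed last line was taken as the worth of 1 read and left out of the genes. The Smad read numbers were derived from that line, and this reading of it was not checked. The plan took both for TPM.

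limma 3.58.1 (R 4.3.3) was fitted with a trend to log2(CPM + 1), all groups of a table together, on genes at 1 CPM or more in 3 libraries or, in the Smad table, 5 or more in 2, with Benjamini-Hochberg adjustment over all genes and a threshold of 0.05. A Smad filter of 1 was planned, but on data simulated with rounding it gave mostly false calls or none, so 5 was used instead before Smad calls were seen, and 1 was kept for comparison. Fits were tested on simulated data. edgeR 4.0.16 and DESeq2 1.42.0 were run on recovered reads as alternatives. Counting intervals and floors cover counting error only, as reads carry no molecular identifiers. Same-numbered libraries of control and sgSmad2 deviated together from their group means (correlation 0.263); other Smad pairs (0.0149 to 0.0486) and cell-type pairs (-0.0029 to 0.0414) did not. As not every pair passed 0.1 and the labels state no shared source, the block was an alternative only. The members and the lists were chosen with earlier results of these data known. Values in every library are given for Mcm2 to Mcm7, Cdc6, Cdt1, Gmnn, Pcna, Rrm1, Rrm2, Tyms, Tk1, E2f1 and the member of each role with the largest change in Treg against naive cells; from each other list the 2 largest changes in each direction among genes past the threshold in Treg against naive cells are named.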

Additional observations from a re-analysis of the deposited data

How the results depend on the processing

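Pseudocount, filter, scaling, trend, replicate block, samples fitted, tool and leaving out each library were varied. The number of the 45 genes called in Treg against naive cells was 43 to 45 when a library was left out and at least 42 otherwise, and in Th0 against naive cells 43 to 45. Treg against Th0 gave 0 except for 1 by edgeR on whole reads; the cause was not tested. The guide comparisons gave 0 throughout; where a Smad library was left out, the lone sample was assumed to vary like the others. Under the replicate block the counts were 45, 45 and 0, and 0 for each guide, and no call changed. Quantile scaling moved the median of all genes in Treg against naive cells from 0.08 to -0.04, the members' median being 1.99, and the split of all calls from 3305 higher and 2343 lower to 2735 and 2833 (Th0 against naive: 3442 and 2493 to 2872 and 3031). Positive fitted values numbered 26 to 33 for sgSmad2, 33 to 40 for sgSmad3 and 34 to 40 for sgSmad2/3. Counts over all genes moved far more with the guides: 1, 10 and 56 ran from 0 to 2, 0 to 27 and 0 to 110, the highest under the replicate block. In Treg against Th0 770 ran from 453 to 1066. Depth limits the 10 members with few naive reads.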
